A study of Homo sapiens with 13 samples.

Results

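The 10 genes described here encode Polycomb proteins and enzymes that act on the same or the opposing histone marks: EZH2, EED, SUZ12, JARID2, RNF2, BMI1, CBX2, KDM2B, KDM6B and KMT2D. For each gene 1 transcription start site on the hg19 build was given, and every ChIP-seq peak that came within 10 kb of it was taken, measured from the start site to the nearest edge of the peak. The rule found 73 of the 136141 peaks in 7 deposited lists. All 10 genes had at least 1 peak.

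The cells were from H1 (WA01), a long-established line of human embryonic stem cells. WT cells were compared with 1 H1 clone that is a homozygous knockout (KO) of ZNF263, a C2H2 zinc finger transcription factor, made with Cas9. Chromatin immunoprecipitation with sequencing gave 1 peak list for each of H3K4me3, H3K27ac and H3K27me3 in WT and in KO cells. The remaining list came from a FLAG antibody in KO cells with ectopic expression of FLAG-tagged ZNF263, so it has no WT arm and its peaks need not all be sites of the endogenous protein. Each genotype had 1 library for each mark, so the genotypes were not tested against each other and no difference below has a replicate check. The FLAG list is also named in the labels of the WT libraries in which ZNF263 itself was precipitated. The sources used here do not say if those reads were part of it. The identity of the cells was not checked against marker genes here, because start sites of other genes on hg19 were not used.

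Polycomb proteins work in 2 groups of complexes. PRC2 methylates histone H3 at the residue H3K27 through EZH2, held with EED and SUZ12, and JARID2 is a cofactor that helps to bring it to chromatin. PRC1 ubiquitinates histone H2A through RNF2 with partners such as BMI1, its CBX subunits bind H3K27me3, and KDM2B brings a variant form to CpG islands. KDM6B removes the methyl groups that PRC2 adds, and KMT2D, of the trithorax side, methylates H3K4. H3K4me3 marks promoters, H3K27ac is found at promoters and enhancers in use, and H3K27me3 is the product of PRC2. In embryonic stem cells many developmental genes carry H3K4me3 and H3K27me3 together, a state called bivalent.

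Most marks near the genes were present in both genotypes, and H3K27ac was the mark that was missing from KO at some. H3K4me3 was present near all 10 genes in WT and in KO. H3K27me3 lay near RNF2, BMI1, CBX2 and KDM6B in both genotypes, and near none of the other 6 genes in either. H3K27ac lay near 9 genes in WT, all but BMI1, and near 7 in KO, where JARID2 and KDM6B had none. FLAG peaks lay near 7 genes, all but EED, SUZ12 and KMT2D. As a background, windows of the same length were centred on each of the 28660 WT H3K4me3 peaks. Of these, 91.4% held a KO H3K4me3 peak, 49.8% a WT and 46.6% a KO H3K27ac peak, 39.1% a WT and 34.8% a KO H3K27me3 peak, and 50.7% a FLAG peak. Around the 12303 WT H3K4me3 peaks with a score of 3100 or more, the upper end of that list, 64.0% held a WT and 57.9% a KO H3K27ac peak, 41.1% a WT and 35.5% a KO H3K27me3 peak, and 66.6% a FLAG peak. The shares of the 10 genes with H3K27me3 and with FLAG peaks were close to this second background. The shares with H3K27ac, 9 genes in WT and 7 in KO, were above it. Shares of 10 genes are coarse, and nothing particular to the genes is read from them. The background windows overlap each other.

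**Figure D1:**
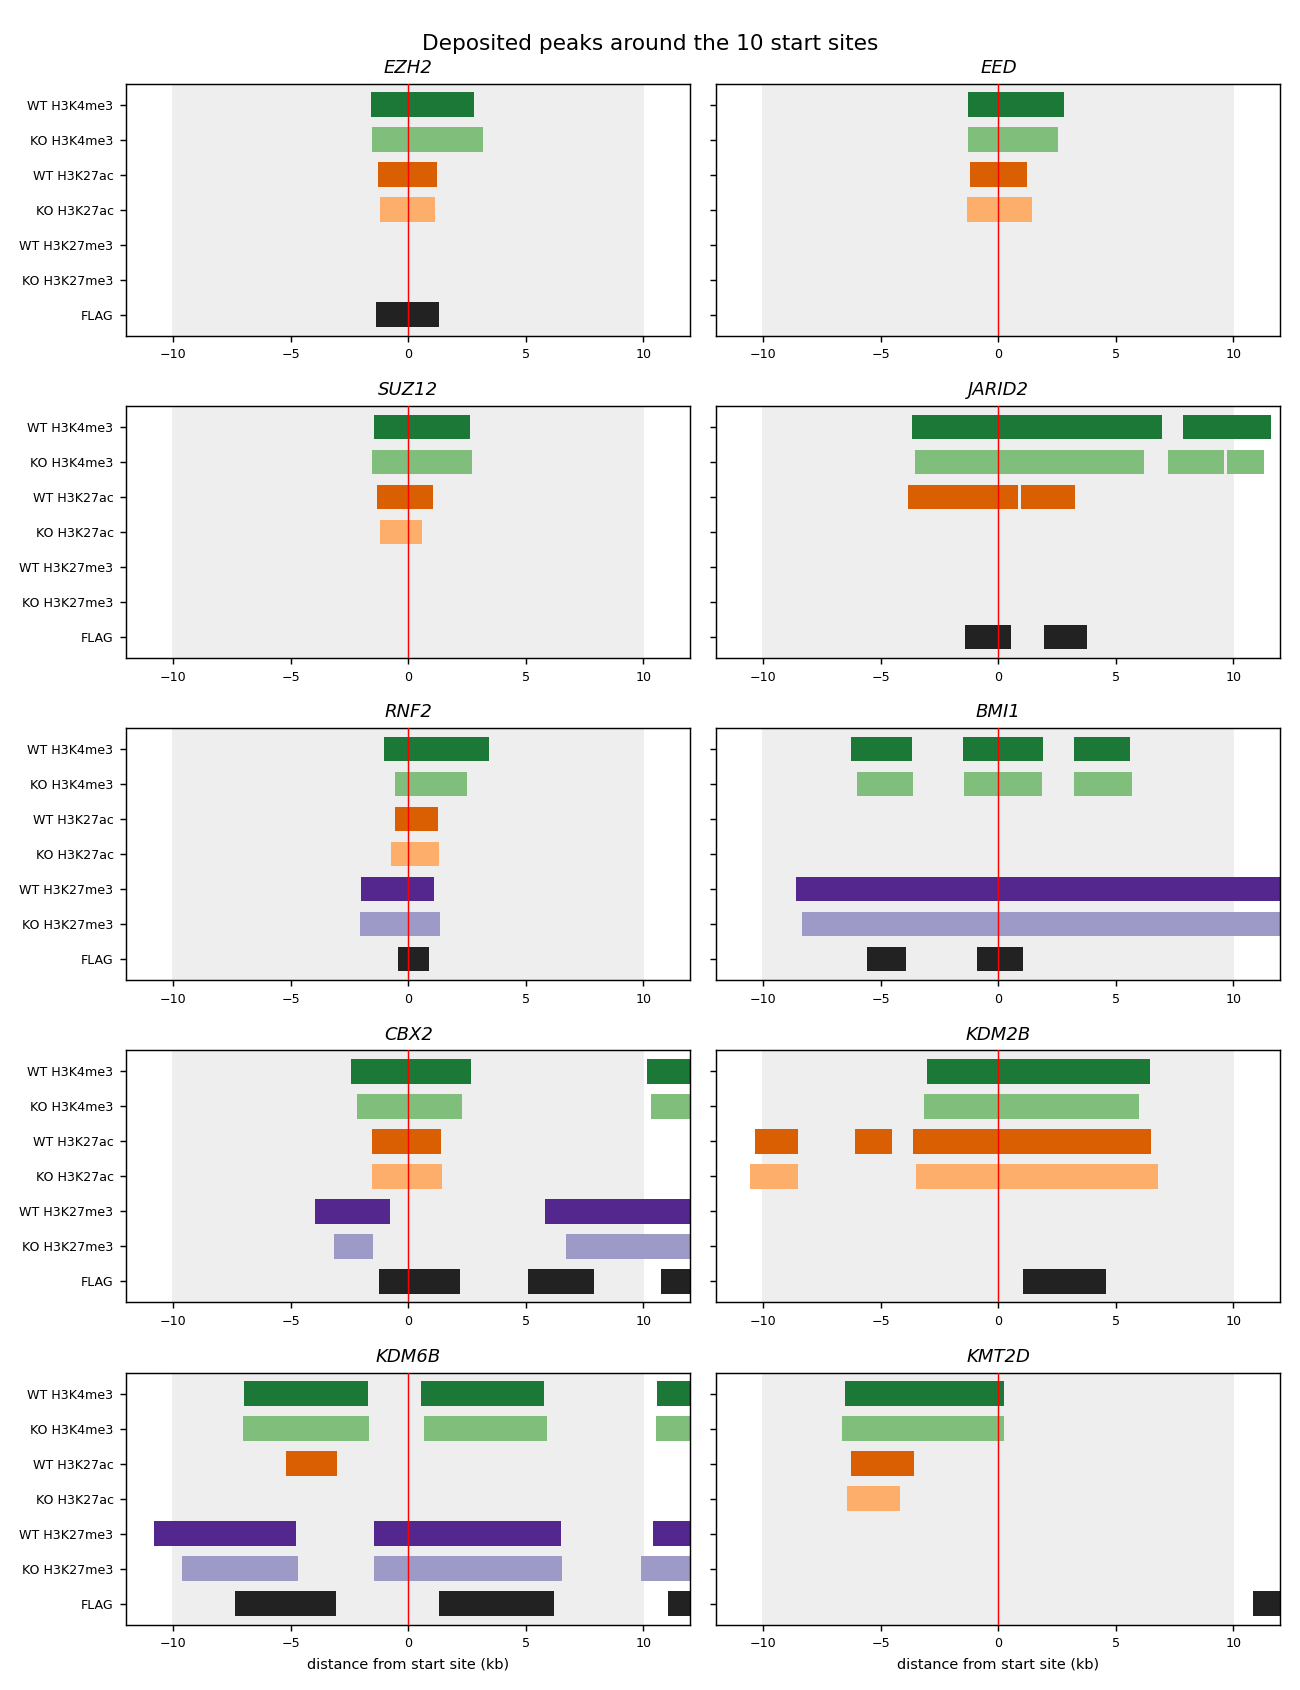
Peaks of the 7 lists around each start site. The horizontal axis is the distance from the start site in kb, in the direction of transcription (for CBX2, whose strand was not given, toward higher coordinates); the red line is the start site, the grey band the 10 kb on each side, and each bar is 1 deposited peak. H3K27ac bars near JARID2 and KDM6B are present in WT and absent in KO, and long H3K27me3 bars cross BMI1 in both.

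The H3K4me3 peaks at the start sites were strong in both lists. A peak covered the start site of 9 genes in each genotype. KDM6B, whose given start site lay between 2 H3K4me3 peaks, was the exception. All 9 start-site peaks had a score of 3100, at which 12083 WT and 11131 KO H3K4me3 peaks tie. The score therefore does not rank them against each other. A further 220 WT and 228 KO peaks scored higher. Scores of 3100 or more made up 42.9% of all WT and 41.9% of all KO H3K4me3 peaks. Widths of these 9 peaks ranged from 3.39 to 10.7 kb in WT, with a median of 4.43 kb, and from 3.06 to 9.73 kb in KO, with a median of 4.49 kb. The median over each complete list, weak peaks included, was 2.50 kb in WT and 2.56 kb in KO. Within 10 kb of the centres of WT H3K4me3 peaks with a score of 3100 or more, the median H3K4me3 coverage was 4.05 kb in WT and 3.99 kb in KO. That is covered length and not peak width, but it lies closer to the widths of the 9 peaks. In WT, 8 of the 9 overlapped H3K27ac, where 42.6% of all WT H3K4me3 peaks did so and 59.5% of those with a score of 3100 or more. In KO, 7 of the 9 did, against 41.4% and 56.0%. H3K27me3 overlapped 3 of the 9 in both genotypes, those of RNF2, BMI1 and CBX2. The background for H3K27me3 was 33.4% of all WT and 30.7% of all KO H3K4me3 peaks, and 37.1% and 30.5% of those with a score of 3100 or more.

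The genes of the PRC2 core, EZH2, EED and SUZ12, had active-type promoters in both genotypes, with H3K4me3 and H3K27ac over the start site and no H3K27me3 within 10 kb. EZH2, the methyltransferase itself, has its start site at chromosome 7, 148581441. Its H3K4me3 peak reached from 1.57 kb before to 2.80 kb after the start in WT (148578639 to 148583015) and from 1.54 kb before to 3.15 kb after it in KO. The H3K27ac peak was 2.51 kb wide in WT, with a score of 148 that was above 57.2% of its list. In KO it was 2.36 kb wide, with a score of 348, above 81.5% of the KO list. Scores come from separate lists with no stated common scale, so the gap between 148 and 348 is not a measured change. A FLAG peak of 2.69 kb (148580137 to 148582826) also covered the EZH2 start site. EZH2 was the only one of these 3 genes with a FLAG peak within 10 kb.

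EED, the subunit that reads H3K27me3, starts at chromosome 11, 85955806. H3K4me3 covered 4.06 kb in WT and 3.80 kb in KO around it. Its H3K27ac peak was 2.42 kb wide in WT (score 719) and 2.75 kb in KO (score 373). SUZ12, the scaffold of PRC2, starts at chromosome 17, 30264044, and its H3K4me3 peak was 4.08 kb wide in WT and 4.24 kb in KO. The H3K27ac peak at SUZ12 was 2.38 kb wide in WT and 1.82 kb in KO, with scores of 567 and 570. Its end lay 1.07 kb after the start site in WT and 0.597 kb after it in KO. The 3 core genes thus had the same pair of marks in both genotypes, and no mark at them differed by more than 0.566 kb in covered length.

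JARID2, the PRC2 cofactor, had the largest difference in H3K27ac coverage between WT and KO of the 10 genes. Its start site at chromosome 6, 15246206 lay in a broad H3K4me3 peak of 10.7 kb in WT (15242514 to 15253174), wider than 99.5% of the WT list, and of 9.73 kb in KO (15242662 to 15252392), wider than 99.3% of the KO list. H3K27ac formed 2 peaks over it in WT. The first, 4.66 kb wide (15242371 to 15247033), covered the start site with a score of 163, above 60.2% of the WT H3K27ac list. The second, 2.30 kb wide (15247168 to 15249464), began 0.962 kb after the start with a score of 51.3. The KO list had no H3K27ac peak within 10 kb of the JARID2 start site. Its nearest KO peak lay 20.7 kb from the first of these WT peaks and 18.3 kb from the second.

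H3K27ac therefore covered 6.96 kb of the JARID2 window in WT and 0 kb in KO. Over the same windows around WT H3K4me3 peaks elsewhere, 2 of 28658 had a more negative difference between KO and WT. The JARID2 window held more WT H3K27ac than 97.8% of all such windows, and those could not have had a more negative difference. The WT peak over the start site was strong for a peak without a KO counterpart: 140 of the 4310 WT-only H3K27ac peaks, or 3.25%, had a higher score. The second peak was weak, since 60.8% of WT-only peaks had a higher score. A KO H3K27ac region with a score just under the caller's threshold would also be missing from the list, and the lists give no read counts to measure it.

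Around JARID2 the other marks were alike in both genotypes. H3K4me3 covered 12.8 kb of the window in WT and 12.4 kb in KO. A weaker H3K4me3 peak of 3.75 kb (score 214) began 7.84 kb after the start site in WT, and 2 KO peaks of 2.41 and 1.55 kb (scores 72.0 and 72.4) overlapped it. Farther out, from 17.1 to 24.4 kb after the start, lay another H3K4me3 peak with a score of 1515 in WT and 1623 in KO. Within it the KO list had an H3K27ac peak of 2.13 kb with a score of 40.5, near the lowest score of that list (40.0), and the WT list had none overlapping it. This peak was chosen for mention after its values were seen.

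Both FLAG peaks at JARID2 overlapped the H3K27ac peaks found in WT. One covered the start site, from 1.43 kb before to 0.535 kb after it (15244774 to 15246741), with a score of 142. The other lay 1.93 to 3.77 kb after the start (15248139 to 15249973), and its score of 476 was above 97.0% of the FLAG list and the highest of the 11 FLAG peaks near these genes. RefSeq gives 2 promoter windows for JARID2, 2786 bp apart on GRCh38. They are printed here, with 3 windows of other members, to show which contain the G-rich letters for which ZNF263 is known. Each runs from 250 bases before to 50 after a RefSeq start, 5′ to 3′ on the strand of the gene, and capitals mark GGAGGA, the longer GGGAGGA that contains it, and the reverse complements of both. The windows are on GRCh38 and the peaks on hg19, so no window was placed inside a peak.
JARID2 first window, GRCh38 chr6:15245819-15246118, plus strand: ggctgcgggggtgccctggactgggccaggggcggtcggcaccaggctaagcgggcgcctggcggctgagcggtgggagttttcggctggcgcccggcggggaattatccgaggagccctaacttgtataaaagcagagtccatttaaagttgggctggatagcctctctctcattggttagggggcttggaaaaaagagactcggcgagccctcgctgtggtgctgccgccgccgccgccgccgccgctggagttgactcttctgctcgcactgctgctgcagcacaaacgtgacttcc
JARID2 second window, GRCh38 chr6:15248605-15248904, plus strand: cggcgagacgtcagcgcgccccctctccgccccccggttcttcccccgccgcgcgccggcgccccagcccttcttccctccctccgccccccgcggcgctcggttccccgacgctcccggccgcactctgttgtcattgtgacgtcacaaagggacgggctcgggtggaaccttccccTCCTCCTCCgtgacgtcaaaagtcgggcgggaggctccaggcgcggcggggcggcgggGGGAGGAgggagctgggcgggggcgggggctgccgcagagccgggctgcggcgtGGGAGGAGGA
KDM2B window 3, GRCh38 chr12:121579610-121579909, minus strand: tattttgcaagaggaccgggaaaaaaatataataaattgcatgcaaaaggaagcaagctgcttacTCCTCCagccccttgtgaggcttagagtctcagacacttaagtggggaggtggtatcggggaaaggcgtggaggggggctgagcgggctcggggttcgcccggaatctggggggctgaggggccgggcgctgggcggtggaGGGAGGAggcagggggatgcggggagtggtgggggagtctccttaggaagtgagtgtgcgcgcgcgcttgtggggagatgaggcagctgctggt
BMI1 first window, GRCh38 chr10:22320849-22321148, plus strand: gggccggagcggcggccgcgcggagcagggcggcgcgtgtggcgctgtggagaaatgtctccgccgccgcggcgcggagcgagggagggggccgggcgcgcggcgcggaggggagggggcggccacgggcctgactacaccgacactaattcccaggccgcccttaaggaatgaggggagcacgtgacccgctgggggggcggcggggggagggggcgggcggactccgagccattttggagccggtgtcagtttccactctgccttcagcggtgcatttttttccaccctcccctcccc
EED window, GRCh38 chr11:86244503-86244802, plus strand: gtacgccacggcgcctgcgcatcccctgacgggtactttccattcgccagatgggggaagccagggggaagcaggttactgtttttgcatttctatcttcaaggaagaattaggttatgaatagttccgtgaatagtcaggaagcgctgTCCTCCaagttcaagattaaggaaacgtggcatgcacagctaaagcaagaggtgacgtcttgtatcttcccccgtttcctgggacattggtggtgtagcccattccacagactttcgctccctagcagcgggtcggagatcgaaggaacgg

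The second JARID2 window held GGAGGA 5 times over both strands, 2 of them within GGGAGGA, and the first held none. Window 3 of 4 at KDM2B held it 2 times, 1 of them as GGGAGGA. EED and KMT2D, which had no FLAG peak within 10 kb, held GGAGGA 1 time each and no GGGAGGA. None was found in the windows of EZH2, SUZ12, RNF2, BMI1 and KDM6B. In all, 4 of the 16 windows of 9 matched members held GGAGGA and 2 held GGGAGGA, against 36.6% and 18.1% of all 35116 RefSeq promoter windows. GGAGGA was thus found at genes with and without FLAG peaks within 10 kb. GGGAGGA was found only at JARID2 and KDM2B, which had FLAG peaks, while EZH2, RNF2, BMI1 and KDM6B had FLAG peaks and neither string. Whether these letters go with FLAG peaks was not tested, because no window was placed inside a peak. The windows were rich in CG pairs at most members, with 46 in the first EZH2 window, 40 at SUZ12 and 41 at RNF2, against a median of 14.0 over all windows.

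Among the PRC1 genes, RNF2, the catalytic RING protein, carried all 3 marks and a FLAG peak over its start site at chromosome 1, 185014551. The H3K4me3 peak was 4.43 kb wide in WT (185013528 to 185017962) and 3.06 kb in KO (185013991 to 185017055), a difference of 1.37 kb and the largest difference in H3K4me3 coverage among the 10 genes. Of all windows around WT H3K4me3 peaks, 9.12% had a more negative difference. Around those with a score of 3100 or more, as at RNF2, 2.58% did. H3K27ac at RNF2 covered 1.81 kb in WT and 2.07 kb in KO, and H3K27me3 3.12 kb and 3.39 kb. The H3K27me3 peak began 2.03 kb before the start site in WT and 2.06 kb before it in KO. Its scores of 304 and 257 lay near the middle of their lists, above 50.5% and 46.4% of peaks. The FLAG peak of 1.35 kb (185014090 to 185015435) was weak, with a score of 66.8 above 31.3% of its list. Whether the 3 marks lay on the same DNA molecules cannot be told from peak lists.

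BMI1, a partner of RNF2, lay inside a wide H3K27me3 domain. Its start site at chromosome 10, 22610140 lay in an H3K27me3 peak of 36.4 kb in WT (22601519 to 22637907) and 36.0 kb in KO (22601785 to 22637768), with a score of 3100 in both. These were the 42nd widest H3K27me3 peak of 11906 in WT and the 48th of 10375 in KO. KO H3K27me3 covered 98.9% of the WT peak. Within it lay 6 H3K4me3 peaks in each genotype, 4 FLAG peaks and no H3K27ac peak in either. The H3K4me3 peak over the start site was 3.39 kb wide in WT and 3.30 kb in KO. Neighbouring H3K4me3 peaks lay 3.67 kb before it (WT score 3100) and 3.21 kb after it (WT score 2012, KO score 1148).

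The FLAG peaks at BMI1 sat on those H3K4me3 peaks. One covered the start site (22609239 to 22611180) with a score of 367, above 94.4% of the FLAG list. Another lay 3.92 kb before it (22604543 to 22606221) with a score of 136. In the RefSeq gene order, COMMD3 and the COMMD3-BMI1 readthrough gene precede BMI1 and SPAG6 follows it, so peaks away from the start site need not belong to BMI1. Thus BMI1 held a strong FLAG peak and was alike in WT and KO for all 3 marks: H3K4me3 covered 8.37 kb and 8.15 kb of its window, and H3K27me3 18.6 kb and 18.4 kb.

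CBX2, the chromodomain subunit, joined an acetylated promoter to flanking H3K27me3. Positions at CBX2 are by coordinate, since its strand was not given in the tables used. Around the start site at chromosome 17, 77751977, H3K4me3 covered 5.10 kb in WT (77749527 to 77754627) and 4.49 kb in KO (77749783 to 77754271). H3K27ac covered 2.96 kb and 2.98 kb, with scores of 530 and 506. H3K27me3 did not cover the start site itself. On the side of lower coordinates it formed a weak peak of 3.21 kb in WT (77747989 to 77751196, score 102) and of 1.66 kb in KO (77748809 to 77750471, score 69.2), each overlapping the H3K4me3 peak of its genotype.

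On the side of higher coordinates a large H3K27me3 domain began 5.83 kb from the CBX2 start site in WT and 6.70 kb from it in KO. In WT it was split by a gap of 145 bp into a peak of 13.6 kb (77757810 to 77771437) and one of 51.6 kb. In KO it was a single peak of 65.5 kb (77758681 to 77824188), the 10th widest of its list. H3K27me3 peaks in WT covered 98.2% of this KO peak. Within 10 kb of the start site H3K27me3 covered 7.38 kb in WT and 4.96 kb in KO, the largest H3K27me3 difference of the 10 genes. Among all windows, 2.25% had a more negative one. Only 39.1% of these windows held a WT H3K27me3 peak, and the others could not be lower in KO.

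FLAG peaks near CBX2 lay over both parts. One covered the start site (77750715 to 77754185) with a score of 98.4, above 56.9% of its list. The other (77757046 to 77759862) lay at the edge of the large domain with a score of 64.6, above 28.1%. Larger FLAG scores, 396 and 342, stood at peaks 10.7 kb and 19.6 kb from the start site, outside the window. Both overlapped the H3K27me3 domain.

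KDM2B, the CpG-island protein of variant PRC1, had the broadest H3K27ac of the set and no H3K27me3 within 10 kb. Its start site is at chromosome 12, 122018920. The H3K27ac peak over it was 10.1 kb wide in WT (122012424 to 122022543, score 2583) and 10.3 kb in KO (122012121 to 122022417, score 1773). These ranked 32nd by width in WT and 27th in KO, in lists of 17537 and 17571 peaks. H3K4me3 over the same stretch was 9.50 kb wide in WT and 9.12 kb in KO. A weak WT H3K27ac peak of 1.58 kb (122023447 to 122025022, score 44.0) lay 4.53 kb before the start site and had no KO counterpart, although a KO peak lay 1.03 kb away. A distal H3K27ac peak 8.52 kb before the start in WT was matched at 8.53 kb in KO. The FLAG peak of 3.50 kb (122014357 to 122017853, score 221) lay 1.07 to 4.56 kb after the start, inside both broad marks.

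KDM6B, the H3K27 demethylase, was itself marked by H3K27me3. Its start site at chromosome 17, 7743235 lay in an H3K27me3 peak of 7.97 kb in WT (7741762 to 7749730) and 8.01 kb in KO (7741756 to 7749767), both with a score of 3100. No H3K4me3 peak covered that start site. One H3K4me3 peak ended 1.70 kb before it in WT and 1.66 kb before it in KO, and another began 0.529 kb after it in WT and 0.660 kb after it in KO, all with a score of 3100. RefSeq lists 2 starts for KDM6B, 5700 bp apart on GRCh38, and which of them the hg19 site stands for was not resolved here. A position 5700 bp to either side of the hg19 site lies within one of these H3K4me3 peaks in both genotypes. If the spacing is the same on hg19, the other start would therefore be covered by H3K4me3. A second H3K27me3 peak ended 4.79 kb before the start in WT (6.03 kb wide, score 815) and 4.67 kb before it in KO (4.95 kb wide, score 628).

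Within 10 kb of the KDM6B start site, H3K27ac was seen in WT only, as at JARID2. A peak of 2.17 kb (7738017 to 7740183) with a score of 83.3 lay 3.05 kb before the start site, on the H3K4me3 peak and on a FLAG peak. The KO list had no H3K27ac peak within 10 kb, and the nearest lay 19.6 kb from the WT peak. That one was shared between the genotypes: it began 16.5 kb after the start site in WT, with a score of 359, and 16.6 kb after it in KO, with a score of 191. With a window of 20 kb, KDM6B therefore had H3K27ac in both genotypes. This WT peak was of moderate strength for its class, since 21.6% of WT-only H3K27ac peaks had a higher score. FLAG peaks of 4.30 kb (score 89.6) and 4.88 kb (score 105) lay over the H3K4me3 peaks on either side of the start site. These were wider than 93.6% and 96.0% of the FLAG list.

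**Figure D2:**
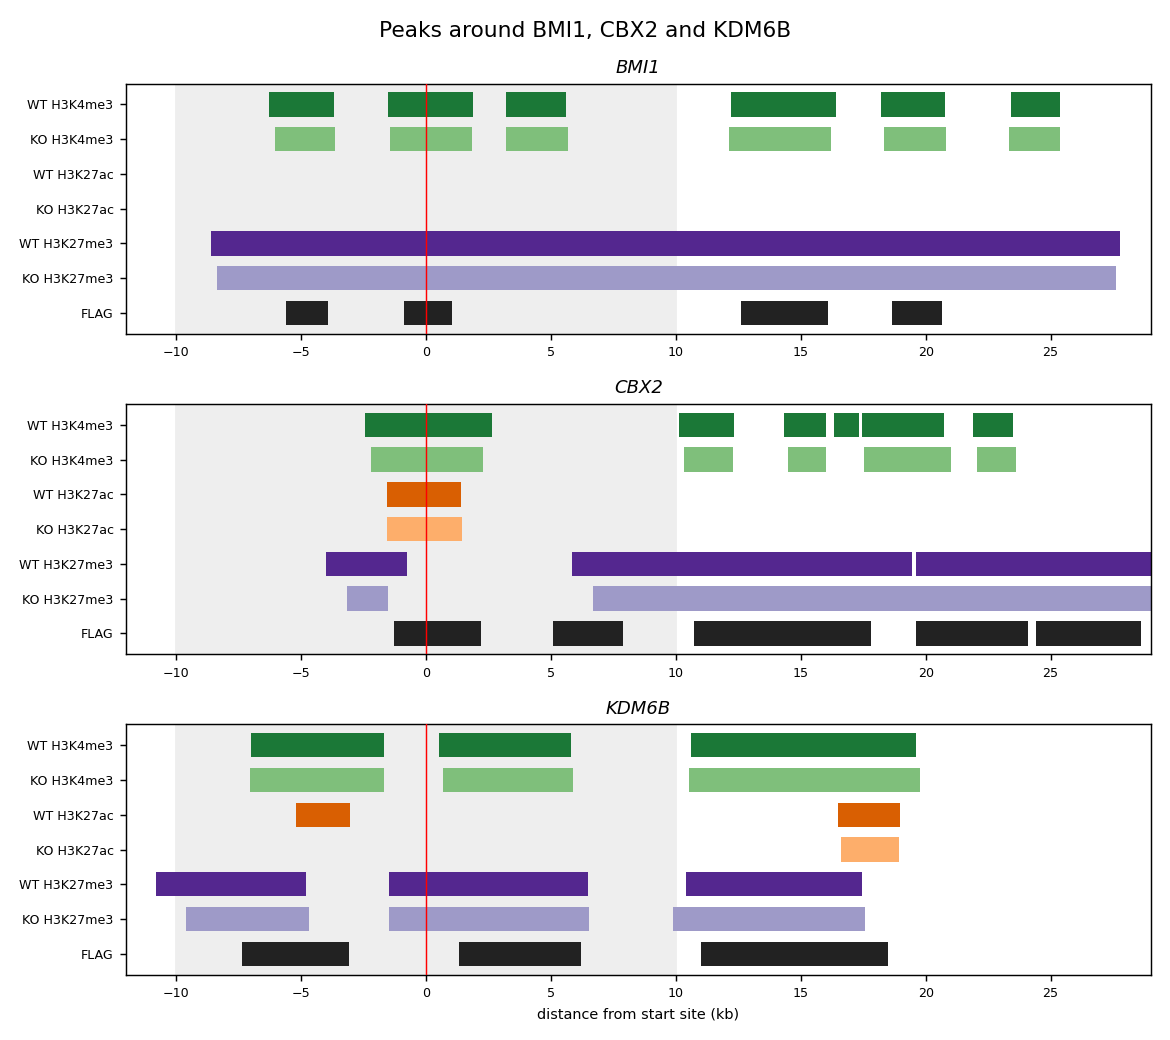
Peaks from 12 kb before to 29 kb after the start sites of BMI1, CBX2 and KDM6B. The axis is the distance from the start site in kb (for CBX2 toward higher coordinates), the grey band is the 10 kb on each side and each bar is 1 peak, cut at the edge of the plot. The 36.4 kb H3K27me3 peak of WT at BMI1 has a like KO peak, and the WT gap of 145 bp in the CBX2 domain is closed in KO.

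KMT2D, the H3K4 methyltransferase, had H3K4me3 and H3K27ac in both genotypes and neither H3K27me3 nor a FLAG peak within 10 kb. Its start site at chromosome 12, 49449107 lay at the edge of the H3K4me3 peak, which reached from 6.51 kb before to 0.222 kb after it in WT (49448885 to 49455613) and from 6.64 kb before to 0.235 kb after it in KO. The H3K27ac peak did not cover this given start site. It ended 3.59 kb before it in WT (2.70 kb wide, score 882) and 4.18 kb before it in KO (2.25 kb wide, score 539). RefSeq lists 1 promoter window for KMT2D on GRCh38, and whether the hg19 site stands for that start was not resolved here. Whether H3K27ac covered the RefSeq start was therefore not determined. Beyond the window, 12.4 kb before the start site, WT had an H3K27me3 peak of 3.56 kb with a score of 213 and KO one of 1.57 kb with a score of 75.4. The nearest FLAG peak lay 10.8 kb after the start with a score of 64.3.

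The next comparison asked which of these peaks were found in 1 genotype only. Peaks of a mark that overlapped between the genotypes by at least 1 bp were counted as shared. All 14 WT and 15 KO H3K4me3 peaks were shared, where 12.3% of all WT and 7.30% of all KO H3K4me3 peaks were not. All 6 WT and 7 KO H3K27me3 peaks were shared too, against 21.6% and 11.0% unshared in the complete lists. For H3K27ac, 4 of the 12 WT peaks had no KO counterpart, 2 at JARID2 and 1 each at KDM2B and KDM6B, and 24.6% of all WT H3K27ac peaks had none. None of the 8 KO peaks lacked a WT counterpart, against 24.8% of the KO list. With the upper 50% of each list by score, the WT count was 1 (JARID2) in place of 4 and the KO count 1 (KDM2B) in place of 0. Of the 9 windows with WT H3K27ac, 2 had none in KO, and in the background this was so for 15.7% of windows with WT H3K27ac. The reverse occurred at none of the 7 windows with KO H3K27ac, against 9.95%. These counts rest on 9 and 7 windows, and nothing particular to the genes is read from them.

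Of the 4 WT-only H3K27ac peaks, 3 overlapped a FLAG peak, both at JARID2 and the one at KDM6B, where 23.2% of all 4310 WT-only H3K27ac peaks did. The 4 peaks were chosen by their distance to a start site and the 4310 were not, so the shares are not like for like. In the complete WT list, 21.1% of H3K27ac peaks on a FLAG peak and 25.9% of those without one had no KO counterpart. FLAG peaks also lay at start-site H3K27ac of EZH2, RNF2 and CBX2 and inside that of KDM2B, where H3K27ac was present in both genotypes. H3K27ac at EED, SUZ12 and KMT2D, without FLAG peaks, was present in both as well. So a FLAG peak was found both where H3K27ac was WT-only and where it was shared.

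Covered length depends less than peak counts on how peaks were split. H3K4me3 covered 70.0 kb of the 10 windows in WT and 67.4 kb in KO, a KO to WT ratio of 0.963, against 0.933 over all windows around WT H3K4me3 peaks. It was lower in KO at 6 genes and higher at 4, with a median difference of -0.238 kb (-0.100 kb over all windows, of which 61.5% were lower in KO). H3K27me3 covered 42.3 kb in WT and 39.8 kb in KO, a ratio of 0.941 against 0.955. At 6 genes it was at 0 in both.

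H3K27ac covered 37.1 kb of the windows in WT and 26.0 kb in KO. The ratio was 0.701, against 0.968 over all windows and 0.941 over those around WT H3K4me3 peaks with a score of 3100 or more. JARID2 accounted for 6.96 kb of this, and without it 9 genes had 30.1 kb and 26.0 kb, a ratio of 0.863. Most of what remained lay at KDM6B, lower in KO by 2.17 kb, and KDM2B, lower by 1.41 kb. The low ratio is thus not a trait shared by all the genes. H3K27ac was lower in KO at 6 genes, higher at 3 and at 0 in both at BMI1. The median difference was -0.300 kb, against 0 kb over all windows. Only 49.8% of all windows held WT H3K27ac, so these medians are not like for like. Over all windows 27.4% were higher in KO, 45.6% were equal and the rest were lower. At EZH2, EED, SUZ12, RNF2, CBX2 and KMT2D the difference was at most 0.566 kb in either direction.

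**Figure D3:**
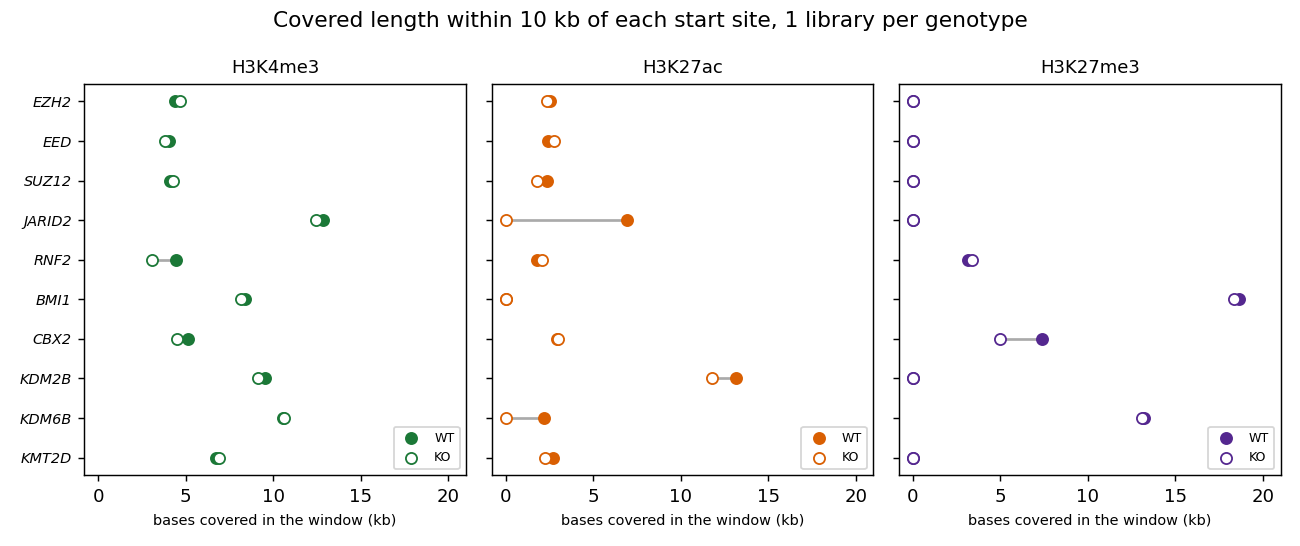
Bases within 10 kb of each start site covered by each mark, in kb; filled points are WT and open points KO, 1 library each, joined by a grey line. The longest line is H3K27ac at JARID2, from 6.96 kb in WT to 0 kb in KO, followed by H3K27me3 at CBX2 and H3K27ac at KDM6B.

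The last comparison placed the FLAG peaks. The 7 genes held 11 FLAG peaks, 2 each at JARID2, BMI1, CBX2 and KDM6B and 1 each at EZH2, RNF2 and KDM2B. A FLAG peak covered the start site at 5 genes: EZH2, JARID2, RNF2, BMI1 and CBX2. The start-site H3K4me3 peak overlapped a FLAG peak at 6 of 9 genes in both genotypes. Among all WT H3K4me3 peaks 39.3% did so and among those with a score of 3100 or more 60.8%, and in KO 40.5% and 61.0%, so the share at these genes was near that of other strong H3K4me3 peaks. Of the 11 FLAG peaks, 10 lay on H3K4me3 in each genotype, where 11484 of all 22966 FLAG peaks lay on it in WT and 11232 (48.9%) in KO. On H3K27ac there were 7 in WT and 4 in KO, against 20.7% and 17.8% of the list. On H3K27me3 there were 7 in WT and 6 in KO, against 28.1% and 25.2%. The 11 peaks were chosen by their distance to a start site, and the list was not.

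FLAG scores spread widely among the genes. They ran from 64.6 at CBX2 to 476 at JARID2, with a median of 136, and 9 of 11 lay above the median of the complete list, 86.7. The 2 strongest, at JARID2 and BMI1, stood on loci of different kinds, one with WT H3K27ac and no H3K27me3 and the other with H3K27me3 and no H3K27ac. All 4 genes with H3K27me3 within 10 kb had FLAG peaks, as did 3 of the 6 without it. Around all WT H3K4me3 peaks, 71.8% of windows with WT H3K27me3 and 37.2% of those without it held a FLAG peak, and around those with a score of 3100 or more 80.3% and 57.0% did.

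**Figure D4:**
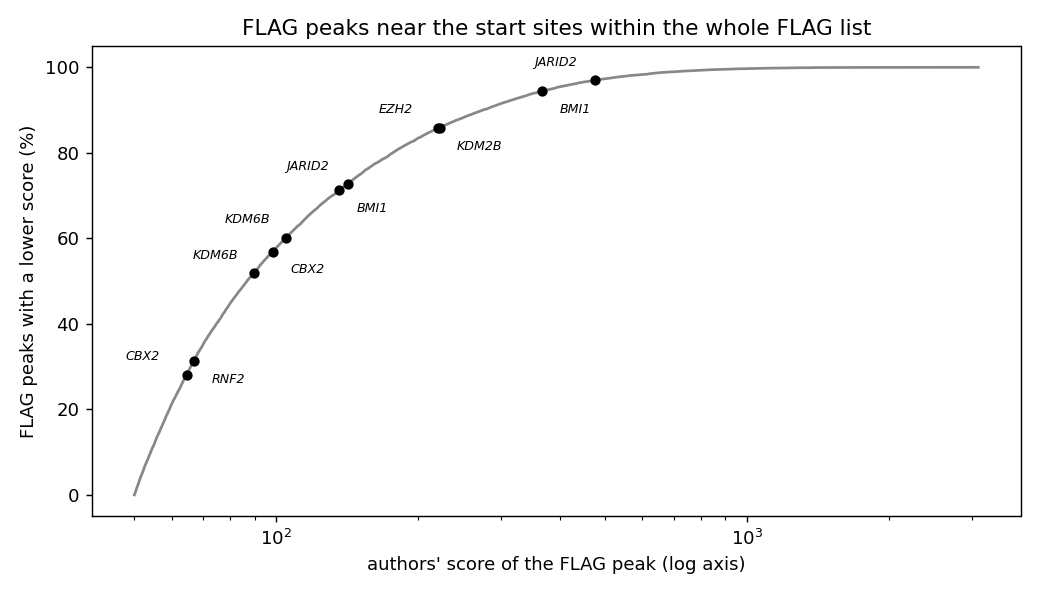
The 11 FLAG peaks near the genes (black points, labelled by gene) on the cumulative curve of the whole FLAG list (grey line). The horizontal axis is the authors' score on a log scale and the vertical axis the percentage of FLAG peaks with a lower score; JARID2 (476) and BMI1 (367) lie highest, and CBX2 (64.6) and RNF2 (66.8) lowest.

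The 10 kb limit decided a few peaks. Just inside it lay 1 of 3 KO H3K27me3 peaks of KDM6B, at 9.88 kb, and a KO H3K4me3 peak of JARID2 at 9.73 kb. Just outside lay H3K4me3 peaks of CBX2 at 10.1 kb in WT and 10.3 kb in KO, and the WT H3K27me3 peak of KDM6B at 10.4 kb, which overlaps the KO peak at 9.88 kb. The KO count of H3K27me3 peaks was above the WT count for that reason.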

How the data were processed

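ChIP-seq peak lists of H1 cells were used, 7 lists in all. Per the submitters' processing notes, reads were handled with Bowtie2 and Picard on hg19, and no version is stated. The authors deposited for each peak a chromosome, start, end, name and score, with no header; the peak names begin with MACS. The sources used here do not give the scale of the score, the caller's version, the inputs or any pooling. Scores were used within a list only. Depth is unknown, because the lists hold no read counts, so no depth-based interval or floor was given.

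Start sites were those stated in the rule for the 10 genes, and coordinates are hg19, counted from 1. Overlaps and covered bases were computed in python 3.11.15 with numpy 2.4.6 and pandas 2.3.3, and plots with matplotlib 3.10.9. On simulated shifts of the 1685 WT H3K27ac peaks of chromosome 1, 0 overlaps differed from a direct count or from bedtools 2.31.1, and covered bases differed in 0 of 200 windows. The members and lists were chosen with earlier results of these data known. All 10 genes are named, with every peak found in 1 genotype only. RefSeq tables (GRCh38.p14) gave strands and promoter sequences for 9 genes and names of neighbours. Other Polycomb genes, the endogenous ZNF263 libraries and the inputs were not analysed here. Strong H3K4me3 peaks as a second background and coverage without JARID2 were chosen after the data were seen.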

Additional observations from a re-analysis of the deposited data

How the results depend on the processing

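Of 140 alternative values for 32 results, 126 were like the main ones (for counts and covered bases, within 1.5 times) and 14 moved. Windows of 5 kb and 20 kb changed covered length by construction: H3K27me3 covered 23014 bp in WT and 21863 bp in KO within 5 kb, and 76871 bp and 70892 bp within 20 kb, against 42298 bp and 39791 bp. Within 20 kb there were 23 WT and 23 KO H3K4me3 peaks, 10 WT H3K27me3 peaks and 21 FLAG peaks, and 1 WT H3K4me3 peak, near CBX2, had no KO counterpart. With the upper 50% of each list by score, 1 WT H3K4me3 peak (BMI1), 1 WT H3K27ac peak (JARID2; 4 in the complete lists), 1 WT H3K27me3 peak (RNF2) and 1 KO H3K27ac peak (KDM2B; 0 in the complete lists) had no counterpart in the shortened other list, and the KO start-site H3K4me3 peak overlapped H3K27me3 at 1 gene. The H3K27ac peak was the one over the JARID2 start site. Requiring an overlap of 50% of the smaller peak, counting peaks up to 1 kb apart as shared, using lists of equal length, and taking the nearest H3K4me3 peak within 1 kb of the start site moved none of the results they were run on. For H3K27ac the complete lists were already close in length, 17537 peaks in WT and 17571 in KO. The lowest KO score near the genes was 134, so equal length could not alter the H3K27ac results and is no check of them. No paired analysis was possible because each genotype has 1 library per mark and no test was run. Peak lists carry no depth, so a region just under a threshold and an unmarked region look the same.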
